A study of Homo sapiens with 10 samples.

Results

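The transcripts of the mitochondrial genome were examined in PC3 cells, a human prostate cancer cell line established from a bone metastasis. The members were all genes of the deposited table whose symbol starts with MT-. They were 37 of 62656 genes, namely 13 messenger RNAs (mRNAs), 2 ribosomal RNAs (rRNAs) and 22 transfer RNAs (tRNAs). Cells had been treated for 24 h with GW3965 at 1 µM, a synthetic agonist of the liver X receptors (LXRs), or with its vehicle DMSO, with 5 libraries per treatment. All libraries came from this 1 line kept in RPMI-1640 with fetal serum. Nothing says that the libraries of a group came from separate cultures, so p-values measure the spread between these libraries, which may be technical. Levels are given in RPKM, which relates the reads of a gene to its length and to a factor of the library.

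The mitochondrial genome is a small circle that is transcribed from both strands into long precursors. The tRNAs lie between most of the other genes, and their excision releases the mRNAs and rRNAs. The mRNAs encode core subunits of the respiratory chain and of ATP synthase, while the rRNAs and tRNAs serve the mitochondrial ribosome that translates them. All proteins that transcribe, process and translate this RNA are encoded in the nucleus.

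The reads behind the RPKM values could be recovered, for part of the genes only up to a common factor. The recovered reads lay between 30429478 and 41636568 per library. ABCA1, a cholesterol exporter induced by LXRs, lay between 2.50 and 5.75 RPKM with DMSO and between 14.1 and 19.5 RPKM with GW3965, and ABCG1 likewise did not overlap between the groups. Their log2 fold changes were 2.29 ± 0.20 (SE) and 2.13 ± 0.15, with limma adjusted p = 0.00063 and 0.000124. Of the epithelial markers, KRT8, KRT18 and KRT19 lay between 29.8 and 174 RPKM in every library, EPCAM between 1.20 and 2.16 RPKM, and CDH1 between 0.152 and 0.518 RPKM. The prostate secretory gene KLK3 was listed at 0 in all libraries, and the leukocyte genes PTPRC, CD3E and CD68 did not exceed 0.0763 RPKM. The 7SL RNAs, the RNA part of the signal recognition particle, made up 12.0 to 23.2% of each library. The table was made from RNA depleted of rRNA according to the protocol, although the sample records name polyA RNA.

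Before the values, the sequences on which they turn are given from the GENCODE 29 transcripts on GRCh38, 5′ to 3′. A group of 4 tRNA genes of the minus strand is shown first, because these had the highest levels of all tRNA genes. They are MT-TY at chrM:5826-5891, MT-TN at chrM:5657-5729, MT-TC at chrM:5761-5826 and MT-TS1 at chrM:7446-7514, and capitals mark the anticodon.
MT-TY: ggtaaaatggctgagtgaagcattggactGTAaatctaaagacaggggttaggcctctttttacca
MT-TN: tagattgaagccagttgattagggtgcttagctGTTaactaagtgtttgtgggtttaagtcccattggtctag
MT-TC: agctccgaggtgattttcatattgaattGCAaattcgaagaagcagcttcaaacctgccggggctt
MT-TS1: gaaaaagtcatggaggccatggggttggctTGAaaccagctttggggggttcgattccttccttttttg
Of the plus strand, 3 tRNA genes with low levels are shown for contrast, with the anticodon again in capitals. MT-TV at chrM:1602-1670 lies between the rRNA genes, MT-TR at chrM:10405-10469 had the lowest level of all members, and MT-TW at chrM:5512-5579 had the largest tRNA fold change.
MT-TV: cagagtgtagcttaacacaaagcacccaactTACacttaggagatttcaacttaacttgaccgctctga
MT-TR: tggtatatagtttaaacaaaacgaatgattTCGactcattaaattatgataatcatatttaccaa
MT-TW: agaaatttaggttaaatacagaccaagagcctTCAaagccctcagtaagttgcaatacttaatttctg
Anticodons were found by a search for a stem of 5 bases with at least 4 pairs around a loop of 7 bases.

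Mitochondrial genes took 2.27% ± 0.18 (SD, n = 5) of the reads with DMSO and 2.54% ± 0.19 (n = 5) with GW3965. With DMSO the share was 2.34, 2.34, 1.96, 2.42 and 2.28% in libraries 1 to 5. With GW3965 it was 2.49, 2.65, 2.44, 2.79 and 2.31%. The GW3965 libraries were higher by 0.267 percentage points on average, and the groups overlapped, since GW3965 library 5 lay below 3 DMSO libraries. The share was described without a test. The 13 mRNAs held from 98.2 to 98.9% of the mitochondrial reads, the tRNAs from 0.955 to 1.25% and the rRNAs from 0.125 to 0.732%.

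None of the 37 members passed the threshold in either direction by limma with Benjamini-Hochberg adjustment over the 20402 genes tested (0 of 37), where 0.157% of all tested genes passed. At an unadjusted p under 0.05, 6 of the 37 members (16.2%) were found, beside 6.99% of all tested genes. They were MT-CO2, MT-ND4, MT-RNR1, MT-RNR2, MT-TW and MT-TS1, all higher with GW3965. These members are not independent, as the mRNAs moved together from library to library. Limma's voom on the recovered reads also found 6 of 37 at an unadjusted p under 0.05, beside 6.68% of all genes. By voom 3 of 37 passed the adjusted threshold, which were MT-RNR1, MT-RNR2 and MT-TS1, beside 0.309% of all genes. A single member, MT-TS1, had groups that did not overlap, which is 1 of 37 beside 1.84% of all tested genes.

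**Figure D1:**
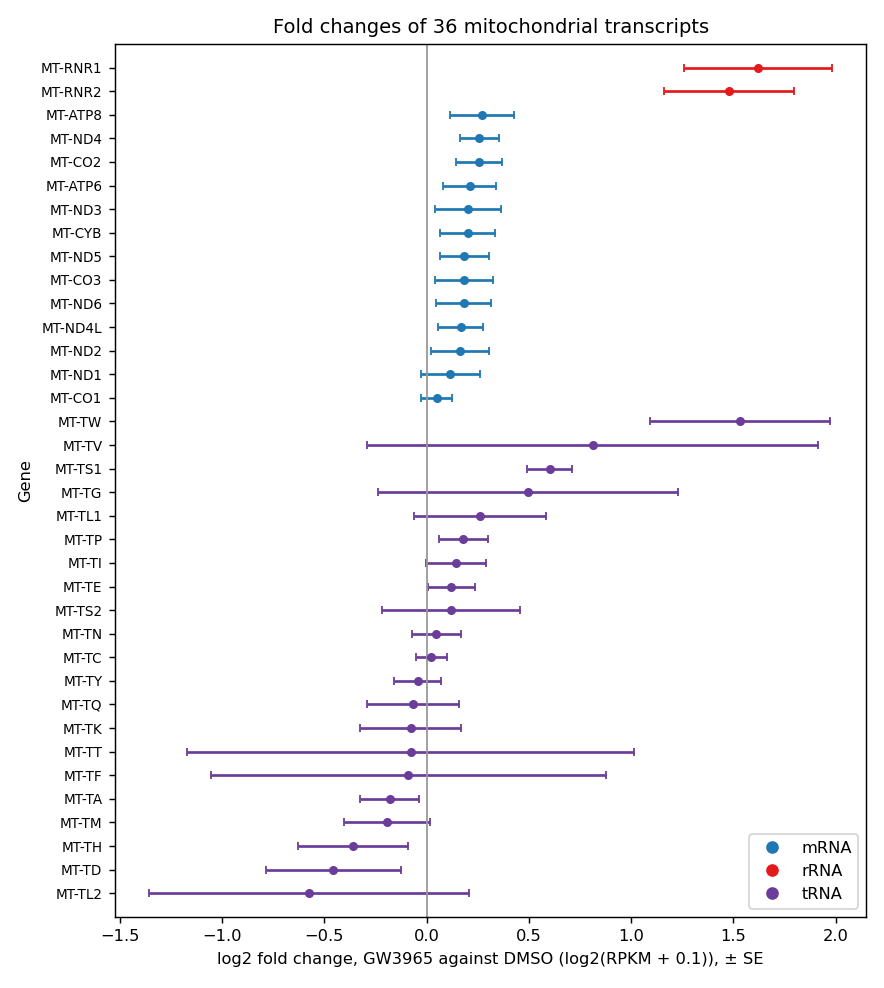
Log2 fold change of GW3965 against DMSO on the log2(RPKM + 0.1) scale (x axis) for 36 members (y axis), grouped by class, with bars of ± 1 SE from limma over 5 libraries per group. The rRNAs lie at 1.62 and 1.48 and the 13 mRNAs between 0.05 and 0.27. The tRNAs lie on both sides of 0, with MT-TW at 1.53 to the right of MT-RNR2. MT-TR, with at most 3 reads in any library, is left out.

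The 13 mRNAs spanned an 18.8-fold range of mean RPKM over the 10 libraries. MT-CO1, a core subunit of cytochrome c oxidase (complex IV), was the most abundant with 6495 RPKM, followed by MT-CO2 with 3398 RPKM and MT-CO3 with 2401 RPKM, the other mitochondrial subunits of that complex. Next came MT-ND4, a subunit of NADH dehydrogenase (complex I), with 1795 RPKM, MT-ATP6, a subunit of the proton channel of ATP synthase, with 1653 RPKM, and the complex I subunits MT-ND2 with 1387 RPKM and MT-ND1 with 1094 RPKM. MT-CYB, cytochrome b of complex III, had 979 RPKM. The complex I subunits MT-ND4L, MT-ND5, MT-ND6 and MT-ND3 had 918, 658, 548 and 533 RPKM. MT-ATP8, the short accessory subunit of ATP synthase, had the lowest RPKM with 345. The rank of MT-ATP8 and the 18.8-fold range may depend on how reads shared with MT-ATP6, which it overlaps, were counted. Of the 12 pairs of neighbours in this order, 10 were in the same order in every library. MT-CYB lay above MT-ND4L in 7 of 10 libraries and MT-ND6 above MT-ND3 in 7 of 10, so these pairs are not ordered beyond their spread.

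**Figure D2:**
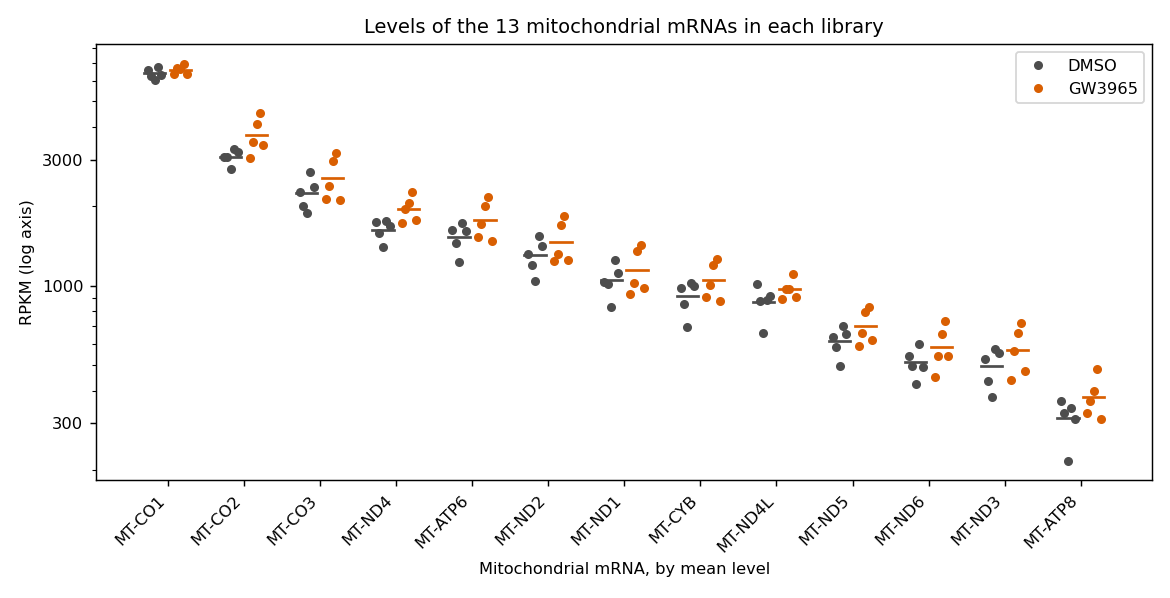
RPKM of each mitochondrial mRNA on a log axis (y axis), with genes ordered by their mean (x axis). Points are the 5 DMSO and 5 GW3965 libraries in number order from left to right, and lines are group means. MT-CO1 leads at 6495 RPKM with little spread, MT-ATP8 is lowest at 345 RPKM, and the groups overlap for every gene.

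All 13 mRNAs had a log2 fold change above 0, with a median of 0.18, while the median of all tested genes was 0.0034 and 51.1% of them lay above 0. None passed the threshold, with limma adjusted p between 0.579 and 0.956, and quantile normalization turned MT-ND1 to -0.09. The extremes fell in the same libraries for every mRNA. DMSO library 3 was the lowest and GW3965 library 4 the highest of the 10 for 13 of 13 mRNAs. GW3965 library 4 lay above every DMSO library for 13 of 13 mRNAs and library 3 for 11, but library 2 for 2, library 5 for 2 and library 1 for 0. The 7SL share was 20.4% in DMSO library 3 and 17.3% in GW3965 library 4, both within the range of the other group. The median was 0.07 with quantile normalization, 0.11 without DMSO replicate 3 and 0.12 without GW3965 replicate 4. It was 0.30 with library quality weights and 0.27 when the 7SL share was a covariate.

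The 7 complex I mRNAs had log2 fold changes between 0.12 and 0.26. MT-ND4 was measured at 1744, 1583, 1397, 1754 and 1686 RPKM in DMSO libraries 1 to 5. It was at 1730, 1949, 2059, 2273 and 1772 RPKM in GW3965 libraries 1 to 5. Library 1 with GW3965 lay within the DMSO range and the other 4 lay above it, with a log2 fold change of 0.26 ± 0.10 (SE, limma adjusted p = 0.579). MT-ND6 is the only mRNA of the minus strand, and its log2 fold change of 0.18 ± 0.13 lay within the range of the plus-strand mRNAs. MT-ND6 and MT-ND5 abut end to end on opposite strands, and the ratio of their RPKM values stayed between 0.750 and 0.883 in the 10 libraries. Whether counting used strand is not given in the sources used here. Without it, reads of any plus-strand RNA opposite MT-ND6 would count for MT-ND6. These values therefore cannot tell the minus-strand mRNA apart from such RNA. MT-CYB, the single complex III mRNA, had a log2 fold change of 0.20 ± 0.14 (adjusted p = 0.847).

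In complex IV, MT-CO2 was at 3071, 3068, 2759, 3301 and 3204 RPKM with DMSO. With GW3965 it was at 3043, 3492, 4105, 4533 and 3402 RPKM. Library 1 again lay within the DMSO range, and the other 4 GW3965 libraries lay above all DMSO libraries (log2 fold change 0.26 ± 0.11, limma adjusted p = 0.696). MT-CO1 was much steadier. It was at 6606, 6247, 6008, 6766 and 6294 RPKM with DMSO and at 6361, 6714, 6657, 6943 and 6350 RPKM with GW3965. The groups overlapped, with a log2 fold change of 0.05 ± 0.08 (adjusted p = 0.956). Its coefficient of variation over the 10 libraries was 4.41%, and that of the other 12 mRNAs lay between 12.7 and 19.95%. MT-CO1 reads made up between 38.0 and 47.4% of all mitochondrial mRNA reads, least in GW3965 library 4 and most in DMSO library 3.

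MT-ATP8 and MT-ATP6 share 46 bases, from chrM:8527 to chrM:8572 on the plus strand, which is shown because reads in it belong to both genes. Capitals mark the start codon of MT-ATP6 and the stop codon of MT-ATP8.
MT-ATP8/MT-ATP6 overlap: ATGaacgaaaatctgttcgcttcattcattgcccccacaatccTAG
HTSeq by default leaves a read that touches 2 genes uncounted, and a 50-base read can start at 113 positions of MT-ATP8 that touch no other gene, for a gene of 207 bases. MT-ATP8 was at 366, 329, 217, 344 and 312 RPKM with DMSO and at 329, 364, 398, 484 and 311 RPKM with GW3965. Its log2 fold change of 0.27 ± 0.15 (adjusted p = 0.804) was the highest of the mRNAs, and the groups overlapped. The ratio of MT-ATP8 to MT-ATP6 lay between 0.176 and 0.227. For MT-ND4L and MT-ND4, which share 7 bases, the ratio lay between 0.472 and 0.582. Levels of these genes, relative to each other and to other mRNAs, may depend on how shared reads were counted. Per start position that touches no other gene of the strand, MT-ATP8 had 22.8 reads per library. MT-ND3 had 22.3 and MT-ND6 19.7 by this measure, although both were higher in RPKM.

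The rRNAs and the tRNA gene MT-TW had the largest log2 fold changes of all members. MT-RNR1 encodes the rRNA of the small mitochondrial ribosomal subunit and MT-RNR2 that of the large subunit. MT-RNR1 was at 25.4, 12.5, 8.66, 15.4 and 14.2 RPKM in DMSO libraries 1 to 5. It was at 28.4, 69.0, 83.4, 41.7 and 24.9 RPKM in GW3965 libraries 1 to 5. GW3965 libraries 3 and 2 were highest, and the groups overlapped only in that DMSO library 1 lay above GW3965 library 5. MT-RNR2 was at 25.6, 12.8, 10.6, 15.8 and 17.3 RPKM with DMSO and at 33.3, 67.6, 75.1, 37.5 and 25.5 RPKM with GW3965. It had the same order at both ends and the same overlap. The log2 fold changes were 1.62 ± 0.36 (SE, limma adjusted p = 0.176) for MT-RNR1 and 1.48 ± 0.32 (adjusted p = 0.151) for MT-RNR2. Neither passed the threshold, while voom on the recovered reads gave adjusted p = 0.0462 and 0.0294. Without GW3965 libraries 2 and 3 the log2 fold changes were 1.10 and 1.01, with adjusted p = 0.568 and 0.504.

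The protocol removes rRNA with probes before sequencing, and these levels are what remained. The mean of 32.4 RPKM for MT-RNR1 and of 32.1 RPKM for MT-RNR2 lay far below that of every mitochondrial mRNA, although these rRNAs are among the most abundant RNAs of a cell. They rested on 250 to 3012 reads per library for MT-RNR1 and at most 4436 for MT-RNR2. Both moved together, with a ratio of MT-RNR2 to MT-RNR1 between 0.899 and 1.219 in every library. Their share of all reads was 0.00403% ± 0.0015 with DMSO and 0.0123% ± 0.0056 with GW3965. By this measure the groups did not overlap, with 0.00644% in DMSO library 1 and 0.00645% in GW3965 library 5 at the edge. Per 1000 mitochondrial mRNA reads there were 1.26 to 2.78 rRNA reads with DMSO and 2.84 to 7.45 with GW3965.

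Other rRNAs differed in how they moved. The 17 genes of cytosolic 5S rRNA in the table summed to 36.5, 22.8, 18.0, 24.9 and 48.2 RPKM with DMSO. They summed to 44.0, 61.2, 86.8, 71.2 and 62.2 RPKM with GW3965. The sum was thus higher in 4 of 5 GW3965 libraries than in any DMSO library, as for the mitochondrial rRNAs. The sum of the 4 genes of 5.8S rRNA lay between 1876 and 4023 RPKM with DMSO and between 2228 and 4092 RPKM with GW3965, with the groups overlapping widely. How far the depletion step removed rRNA from each library, and its part in these differences, was not tested.

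**Figure D3:**
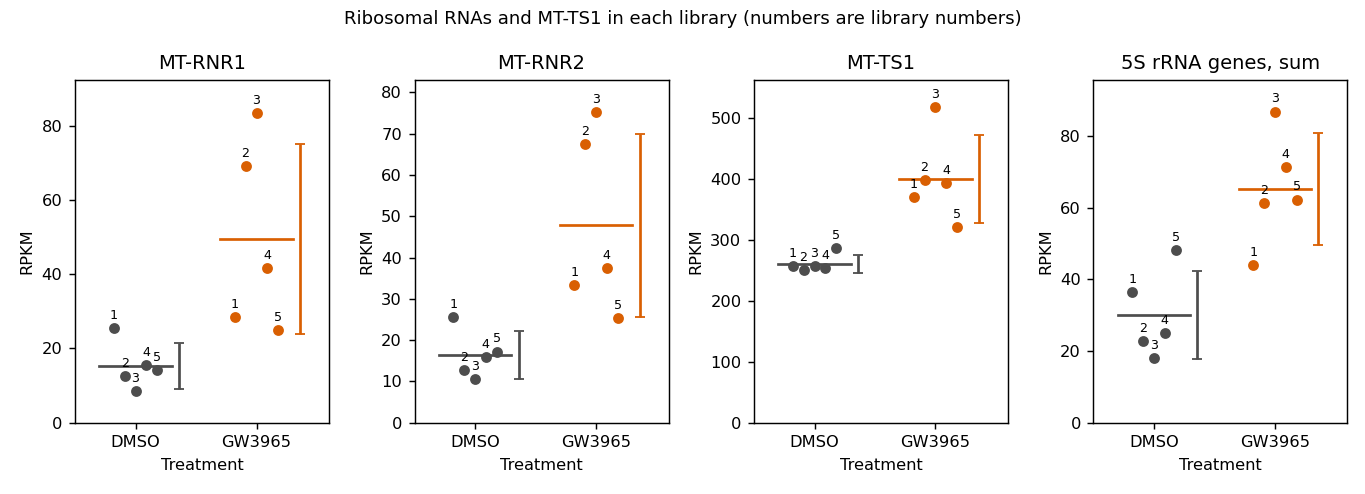
RPKM of MT-RNR1, MT-RNR2 and MT-TS1 and the summed RPKM of 17 genes of 5S rRNA (y axes, from 0) in the 5 DMSO and 5 GW3965 libraries (x axes). Points carry the library number, lines are means and bars are ± 1 SD. MT-TS1 does not overlap between the groups, while DMSO library 1 reaches the lowest GW3965 library for both mitochondrial rRNAs.

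The tRNA genes fell apart by strand. The 8 genes of the minus strand had mean levels from 59.0 to 1417 RPKM and held from 95.4 to 96.7% of the tRNA reads in every library. The 14 genes of the plus strand had mean levels from 0.681 to 48.6 RPKM. The mean of every plus-strand gene lay below that of the lowest minus-strand gene, MT-TA. Reads of a tRNA gene can come from the mature tRNA or from longer precursors, which cannot be told apart in these values.

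The minus-strand genes code for the tRNAs of tyrosine (MT-TY, 1417 RPKM), asparagine (MT-TN, 848 RPKM), cysteine (MT-TC, 602 RPKM), serine (MT-TS1, 331 RPKM), proline (MT-TP, 97.8 RPKM), glutamine (MT-TQ, 87.6 RPKM), glutamate (MT-TE, 86.7 RPKM) and alanine (MT-TA, 59.0 RPKM). The genes MT-TA, MT-TN, MT-TC and MT-TY stand in a row just before MT-CO1 on the other strand, and MT-TS1 follows MT-CO1 directly. Of the plus strand, MT-TI for isoleucine was highest at 48.6 RPKM, followed by MT-TK for lysine at 27.2 RPKM and MT-TM for methionine at 20.2 RPKM. MT-TH for histidine, MT-TS2 for serine, MT-TL1 for leucine and MT-TD for aspartate lay between 5.24 and 15.0 RPKM. The other 7 plus-strand genes, MT-TG for glycine, MT-TW for tryptophan, MT-TT for threonine, MT-TL2 for leucine, MT-TV for valine, MT-TF for phenylalanine and MT-TR for arginine, had fewer than 20 reads in every library.

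**Figure D4:**
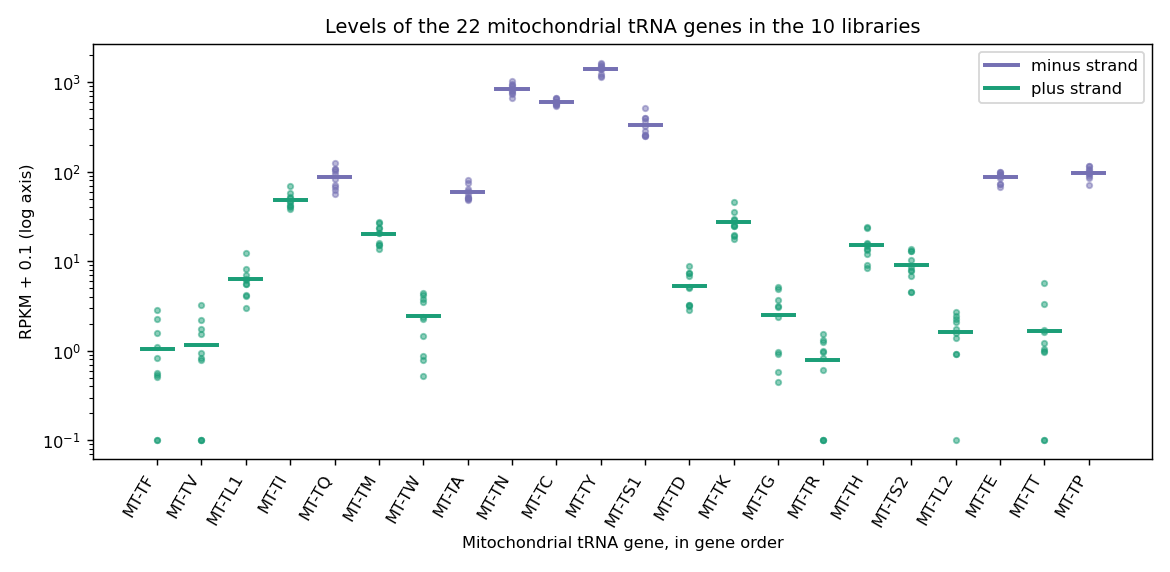
RPKM + 0.1 of the 22 mitochondrial tRNA genes on a log axis (y axis), in their order along the genome (x axis) and coloured by coding strand. Points are the 10 libraries and lines are means. All 8 minus-strand genes have means of 59.0 RPKM or more, and all 14 plus-strand genes have means of 48.6 RPKM or less.

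The length of the read bears on these levels. A 50-base read often reaches beyond a tRNA gene into its neighbour on the same strand, and such a read touches 2 genes. If strand was used in counting, from 47 to 121 start positions touch a single minus-strand gene, and from 10 to 71 a single plus-strand gene. If it was not, the minus-strand genes have 21 to 70. The reads per position in the 10 libraries together lay between 18.6 and 512 for minus-strand genes and between 0.338 and 18.6 for plus-strand genes with strand, and between 34.2 and 1189 against 0.338 and 70.2 without it. The ranges just met in the former case and overlapped in the latter. By the methods, the library kit keeps the strand of the RNA, but whether counting used it is not given in the sources used here. Reads of MT-TY, MT-TC and MT-TN therefore cannot be told apart from reads of the precursor that runs opposite to them.

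MT-TS1, for the serine tRNA that reads UCN codons, was the member whose groups stood apart. It was at 256, 251, 257, 254 and 287 RPKM in DMSO libraries 1 to 5. It was at 370, 399, 517, 394 and 322 RPKM in GW3965 libraries 1 to 5. The groups did not overlap, with DMSO library 5 nearest to GW3965 library 5 and GW3965 library 3 the highest. The log2 fold change was 0.60 ± 0.11 (SE), higher in 5 of 5 GW3965 libraries, with limma adjusted p = 0.0773, which misses the threshold. It passed with voom (adjusted p = 0.0194), with scaling to total reads (0.0225), with a covariate for 7SL (0.0247) and without GW3965 replicate 5 (0.0452). Over all alternatives the adjusted p lay between 0.0194 and 0.237.

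MT-CO1 ends at chrM:7445 and MT-TS1 begins at chrM:7446 on the other strand. The MT-CO1 mRNA is known to run on through the stretch opposite MT-TS1. Without strand in counting, its reads there would be given to MT-TS1 if they touch no other gene. By HTSeq's default this leaves 23 start positions, beside 118 with strand. Reads of the tRNA and of this mRNA cannot be told apart in these values, and their parts in the difference between the groups were not tested. MT-CO1 itself differed by 0.05 on the log2 scale. The level of MT-TS1 was 3.75 to 4.55% of that of MT-CO1 with DMSO and 5.06 to 7.77% with GW3965, which did not overlap. The other 7 minus-strand tRNA genes did not move with MT-TS1, as their log2 fold changes lay between -0.18 and 0.18 and none had an unadjusted p under 0.05.

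Among the plus-strand tRNA genes, MT-TW had the highest log2 fold change of 1.53 ± 0.44 (limma adjusted p = 0.361). It was at 0.426, 0.694, 3.40, 0.773 and 1.36 RPKM with DMSO and at 2.16, 3.68, 4.27, 4.15 and 2.27 RPKM with GW3965. The groups overlapped through DMSO library 3, and the values rested on 1 to 11 reads per library. MT-TL2 had the lowest value, -0.57 ± 0.78 (adjusted p = 0.947), with 0 to 7 reads per library and 19 reads in each group in all. Over the 21 tRNA genes given a fold change, 11 were above 0 and 10 below, with a median of 0.02.

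Several nuclear copies of mitochondrial genes share their sequence and bear on the levels of the members. The table lists 392 such annotated copies, and together they held between 0.787 and 1.03% of all reads. A stretch of 120 bases is shown in which MT-CO1, at chrM:5963-6082, and its copy MTCO1P12, at chr1:631133-631252, both on the plus strand, differ at 1 base, which is in capitals. A 50-base read that lies wholly to either side of that base would match both places.
MT-CO1: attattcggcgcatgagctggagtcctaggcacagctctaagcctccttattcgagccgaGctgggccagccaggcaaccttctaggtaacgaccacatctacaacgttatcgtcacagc
MTCO1P12: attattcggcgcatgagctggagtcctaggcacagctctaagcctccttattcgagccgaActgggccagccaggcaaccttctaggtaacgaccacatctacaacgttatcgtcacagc
Aligned over 1542 bases with 1 gap, the genes differed at 20 bases (98.7% identity), and 49.5% of the 50-base windows of MT-CO1 occurred unchanged in another annotated transcript. That share was 46.7% for MT-ATP6, 43.6% for MT-ND2, 30.6% for MT-CO3, 28.98% for MT-CO2, 22.1% for MT-ND1, 17.9% for MT-ND6, 14.04% for MT-RNR2 and 8.23% for MT-ATP8. It lay between 1.19 and 4.76% for MT-CYB, MT-ND4 and MT-ND5 and was 0% for MT-RNR1, MT-ND3, MT-ND4L and all tRNA genes. Nuclear sequence outside annotated transcripts was not searched, so 0% does not show that a gene has no nuclear copy.

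The 6 copies with the highest mean levels were MTCO1P12 with 3655 RPKM, MTCO2P12 with 1038 RPKM, MTND1P23 with 899 RPKM, MTATP6P1 with 802 RPKM, MTCO2P2 with 729 RPKM and MTND2P28 with 711 RPKM. Of these, 5 lie next to each other on chromosome 1, and MTCO2P2 lies on chromosome 18. Their levels followed those of the mitochondrial genes closely. MTCO1P12 was between 55.4 and 57.4% of MT-CO1 in every library, MTATP6P1 between 47.8 and 49.4% of MT-ATP6, and MTND2P28 between 50.05 and 52.8% of MT-ND2. MTCO1P12 was as steady as MT-CO1, with a coefficient of variation of 3.77%, and MTCO2P12 varied by 19.2% beside 15.8% for MT-CO2. The log2 fold changes of these 6 copies lay between 0.03 and 0.32. Of the 35 copies tested, 0 passed the limma threshold and 9 had an unadjusted p under 0.05, beside 0.157 and 6.99% of all tested genes, with 25 higher and 10 lower with GW3965. These copies share sequence with the members and are not independent of them. How reads that match several places were assigned is not given in the sources used here. The levels of members with shared windows are therefore uncertain, and copies outside annotated transcripts could affect the other members too. Transcription of the copies cannot be told apart from misplaced mitochondrial reads.

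Nuclear genes that serve mitochondrial DNA and RNA were counted by role. Of 162 listed genes, 161 were in the table and 155 were tested, with 72 higher and 83 lower with GW3965 and a median log2 fold change of -0.0042. Limma called 0 of them beside the 0.157% of all tested genes, voom called 0, and 4 of 155 had an unadjusted p under 0.05 beside 6.99% of all tested genes. These 4 were the ribosomal proteins MRPL33 (0.29 ± 0.12, adjusted p = 0.623) and MRPL2 (-0.27 ± 0.12, adjusted p = 0.710), the initiation factor MTIF2 (0.22 ± 0.10, adjusted p = 0.710) and GFM2, which recycles ribosomes (0.15 ± 0.06, adjusted p = 0.610). MRPL33 and MRPL2 were also the highest and the lowest of the whole list.

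The 9 transcription genes had log2 fold changes between -0.07 and 0.10. TFAM, which packs mitochondrial DNA and activates its promoters, was at 13.9 ± 1.3 RPKM (SD, n = 5) with DMSO and at 14.7 ± 1.6 RPKM with GW3965. POLRMT, the mitochondrial RNA polymerase and the lowest of this role, was at 9.07 ± 1.00 and 8.63 ± 0.84 RPKM, and its partner TFB2M at 8.50 ± 0.91 and 8.32 ± 0.94 RPKM. The groups overlapped for all of them. MTERF3, a member of the termination factor family, was the highest with 0.10 ± 0.12. Among 10 replication genes the helicase TWNK was at 2.99 ± 0.40 and 3.16 ± 0.48 RPKM, and the topoisomerases TOP1MT and TOP3A lay at the ends with 0.09 ± 0.06 and -0.12 ± 0.08.

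For RNA stability, LRPPRC and SLIRP, which form a complex that protects mitochondrial mRNAs, were at 4.43 ± 0.52 and 6.95 ± 0.60 RPKM with DMSO. With GW3965 they were at 4.57 ± 0.26 and 7.33 ± 1.37 RPKM, so both differed by less than the spread between libraries. Over the 12 stability genes, PNPT1, a ribonuclease, was highest with 0.13 ± 0.09 and TBRG4 lowest with -0.08 ± 0.10. The 18 processing and modification genes tested lay between TRMT61B, a methyltransferase, with -0.16 ± 0.09 and MTO1, which modifies tRNAs, with 0.12 ± 0.09. In translation TACO1, an activator of MT-CO1 translation, was lowest of 24 genes with -0.15 ± 0.11. Of 6 nuclear regulators tested, GABPB1 was highest with 0.06 ± 0.09 and the coactivator PPARGC1B lowest with -0.09 ± 0.12. The mRNAs of the 76 mitochondrial ribosomal proteins tested divided into 34 higher and 42 lower, with a median of -0.01. The rRNAs that these proteins bind were higher with GW3965, but neither passed the limma threshold. Their levels are what depletion left, so they cannot be set directly against these mRNAs.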

How the data were processed

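RNA of PC3 cells was measured in 10 libraries, which were assigned to DMSO or GW3965 by their titles. The authors deposited RPKM values of 62656 genes. Per the labels, reads were processed with bcl2fastq 2.20.0.422, cutadapt, HISAT2 2.1.0, HTSeq 0.11.2 and DESeq2 1.22.2 on hg38. The methods name a mouse genome, while all identifiers are human. The library kit keeps the strand of the RNA by the methods. The annotation release and the handling of strand in counting and of multiply matching reads are not given in the sources used here.

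Reads per gene were recovered as whole multiples of each library's RPKM step, with GENCODE 29 lengths for all 37 members. That length made the reads whole for 26062 genes. For 21474 others, the smallest length that made the reads whole was taken. Their reads are known only up to a common factor and may be too low, which bears on totals and shares of reads. Of the values above 0, 99.997% came out whole within 0.001 reads, and 1 gene was left out. For genes with a fitted length this was so by construction and is no check. Intervals from reads would cover counting error only, as there are no molecular identifiers. Genes with at most 3 reads in every library were given no fold change.

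The groups were compared on log2(RPKM + 0.1) by linear models and moderated two-sided tests with a variance trend (limma 3.58.1, R 4.3.3). All 20402 genes whose mean reached 0.5 RPKM entered the fit, and p-values were adjusted over them by Benjamini-Hochberg (threshold 0.05). The added 0.1 RPKM understates fold changes of low genes, and libraries with 0 reads can shift them either way. MT-TL2 had -0.57 on this scale, although its means were 1.517 RPKM with DMSO and 1.519 RPKM with GW3965. Shares of reads were described without a test. Identical 50-base windows were sought in all GENCODE 29 transcripts, and MT-CO1 was aligned with its copy in Biopython 1.88. In simulated data over 20121 genes for GW3965 against DMSO, 18 of 75 genes were recovered at a log2 fold change of 0.5. At 1 and 2, 64 of 68 and 53 of 53 were recovered, and 2 of 137 called genes were unchanged. Every simulated gene had the same low dispersion, and changed genes averaged more than 20 reads. Recovery was therefore not measured for genes with fewer reads or a wider spread. MT-RNR1, for example, had a coefficient of variation of 40.8% with DMSO and 51.9% with GW3965.

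Named were all mRNAs and rRNAs, the tRNAs that passed the filter, the 6 most abundant nuclear copies, the ends of each nuclear role and TFAM, POLRMT, TFB2M, TWNK, LRPPRC and SLIRP, with ABCA1 and ABCG1 as a check of the agonist. GFM2 was named after its value was seen. Members and lists were chosen with earlier results of these data known. The same-numbered libraries of the groups did not deviate together (correlations from -0.138 to 0.160), so the fit has no block. Alternatives were other pseudocounts, filters and scalings, limma without a trend or with library weights, voom on recovered reads, a block and the loss of each library. Added after the data were seen were the loss of GW3965 libraries 2 and 3 together and the 7SL share as a covariate.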

Additional observations from a re-analysis of the deposited data

Results flagged for a closer look

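Of 84 groups of 5 libraries examined (37 members and 5 shares of reads, in each treatment), 2 held a library that stood far from the other 4, where chance would give about 4.2. For MT-TS1, DMSO library 5 was at 287 RPKM and the other DMSO libraries lay between 251 and 257 RPKM, and the gap to it was 0.825 of the range of the group on the log2(RPKM + 0.1) scale used for this comparison. For MT-TR, GW3965 library 5 was listed at 0 and the others lay between 0.869 and 1.219 RPKM, a gap of 0.880 of the range on that log2 scale and of 0.713 on the RPKM scale, and this gene had at most 3 reads in any library.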

How the results depend on the processing

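No member passed the limma threshold in the fit as reported, and 23 alternatives left 0 in 19 of them. Voom gave 3, and scaling to total reads and the 7SL share as a covariate gave 1 each, which was MT-TS1. Leaving out single libraries gave 0 to 1, the 1 being MT-TS1 without GW3965 replicate 5. With the replicate block, which the numbers of the libraries do not warrant, 0 members passed and 16 instead of 32 of all genes. Over all alternatives 10 to 63 of all genes passed. The nuclear genes of mitochondrial DNA expression had 0 calls throughout. The median log2 fold change of the 13 mRNAs was 0.07 with quantile normalization and 0.30 with library weights, and 0.11 to 0.25 without single libraries. The difference in the mitochondrial share was 0.481 points as a share of summed RPKM, 0.238 outside 7SL and 7SK, and 0.190 to 0.324 without single libraries. As a paired difference between same-numbered libraries (replicate block) it was 0.267 points. With 5 libraries in each group this equals the difference of the means by arithmetic, so it is no check. Reversed signs were found for MT-ND1 with quantile normalization (-0.088) and for MT-TL2 without GW3965 libraries 2 and 3 (0.090). Without single libraries MT-TL2 ranged from -0.92 to 0.27, TFB2M from -0.086 to 0.021, LRPPRC from -0.026 to 0.088 and SLIRP from -0.0048 to 0.14. Of 18 other tRNA genes, 10 changed sign in at least 1 alternative. Over the rescalings the median log2 fold change of all genes lay between -0.021 and 0.020. The causes were not tested. Depth limits 7 plus-strand tRNA genes, which had fewer than 20 reads in every library.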
